A study of Mus musculus with 13 samples.

Results

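The nuclear-encoded genes of oxidative phosphorylation were examined across cultured cells of the mouse oligodendrocyte lineage with and without Eed, which Polycomb repressive complex 2 (PRC2) needs to place the silencing mark H3K27me3 on histones. Members were chosen by a rule on symbols that uses no measured value, though earlier results of these data were known. It took names that begin with Nduf plus a, b, c, s or v and a digit (complex I) and Sdha to Sdhd (complex II). It also took names that begin with Uqcr (complex III), with Cox4 to Cox8 plus a, b or c (complex IV) and with Atp5 (the ATP synthase, complex V). The rule found 76 of the 13549 genes in the count table, 36 of complex I, 4 of complex II, 8 of complex III, 12 of complex IV and 16 of complex V. Ndufa4 is counted with complex I by its name, although its protein is now assigned to complex IV, and Cox7a2l encodes a supercomplex factor rather than a strict subunit. Atp5s is counted with complex V by its name, although its RefSeq symbol is Dmac2l.

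All cells came from the brain of C57BL/6 mice. Oligodendrocyte precursor cells (OPCs) were cultured in a defined medium that held NT-3 and PDGF. Immature oligodendrocytes (iOLs) were taken on day 2 of culture with thyroid hormone (T3) and without PDGF. The 4 groups were control OPCs (2 libraries), Eed conditional knockout (cKO) OPCs (3 libraries), control iOLs (2 libraries) and Eed cKO iOLs (2 libraries). Brains were of postnatal day 7 for OPC control 1 and OPC cKO 1 and 2, and of postnatal day 6 for the other libraries. The genotype entry of the labels reads EED cKO for controls as well, so the groups follow the sample titles. The Cre driver, the deleted part of Eed and the number of animals behind a library are not given in the sources used here. The p-values therefore measure the spread between these libraries, which may be technical. In bulk RNA, fewer cells of a type and less RNA per cell cannot be told apart.

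Oxidative phosphorylation takes place in the inner mitochondrial membrane. Complexes I and II pass electrons from NADH and succinate to ubiquinone, complex III passes them to cytochrome c, complex IV passes them to oxygen, and complex V uses the proton gradient built on the way to make ATP. Most subunits are encoded in the nucleus and a few core ones in the mitochondrial genome, which were not analysed here. Differentiating oligodendrocytes make large amounts of membrane, an energy-demanding process, and these genes are known to be transcribed in step with each other in many tissues.

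Libraries held 17417529 to 19680398 counted reads, and all values below are CPM (counts scaled to library size) scaled with TMM factors, which assume that most genes do not change. The Eed level was 21.7 and 16.8 CPM in the OPC controls, 13.3, 11.8 and 12.5 in the cKO OPCs, 18 and 21.2 in the control iOLs and 14.6 and 12.1 in the cKO iOLs. The 5 cKO libraries all lay below the lowest control. The summed level of 6 OPC markers, Pdgfra, Cspg4 and Sox10 among them, was 11368 to 15032 CPM in OPC libraries and 3773 to 4606 in iOL libraries. Sox10 alone did not fall in controls, at 792 and 657 CPM in OPCs and 1010 and 924 CPM in iOLs. In cKO cells Sox10 was at 724, 666 and 600 CPM in OPCs and 639 and 742 CPM in iOLs. The summed level of 8 markers of differentiating oligodendrocytes, such as Mbp and Mag, was 7868 and 7575 CPM in control iOLs but 1484 and 2118 in cKO iOLs, and in OPCs it was 5840 in OPC control 1 against 1185 to 2611 in the other OPC libraries. OPC control 1 also stood apart in Hbb-b1 (2877 against at most 1044 CPM elsewhere), Lars2 (5380 against at most 381) and Mir6236 (4456 against at most 172). For the members, the counts called and the medians of comparisons that use this library are therefore given with and without it.

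The members together took 1.25% of all counts in OPC control 1 and between 0.772% and 0.958% in the other libraries. Their summed level was 12715 and 8785 CPM in OPC controls 1 and 2, 7706, 7721 and 8678 CPM in OPC cKO 1 to 3, 9770 and 9435 CPM in control iOLs and 8493 and 8559 CPM in cKO iOLs. Without OPC control 1, the control iOLs were the highest libraries and OPC cKO 1 and 2 the lowest, and OPC control 2 lay between the cKO iOLs and the control iOLs.

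**Figure D1:**
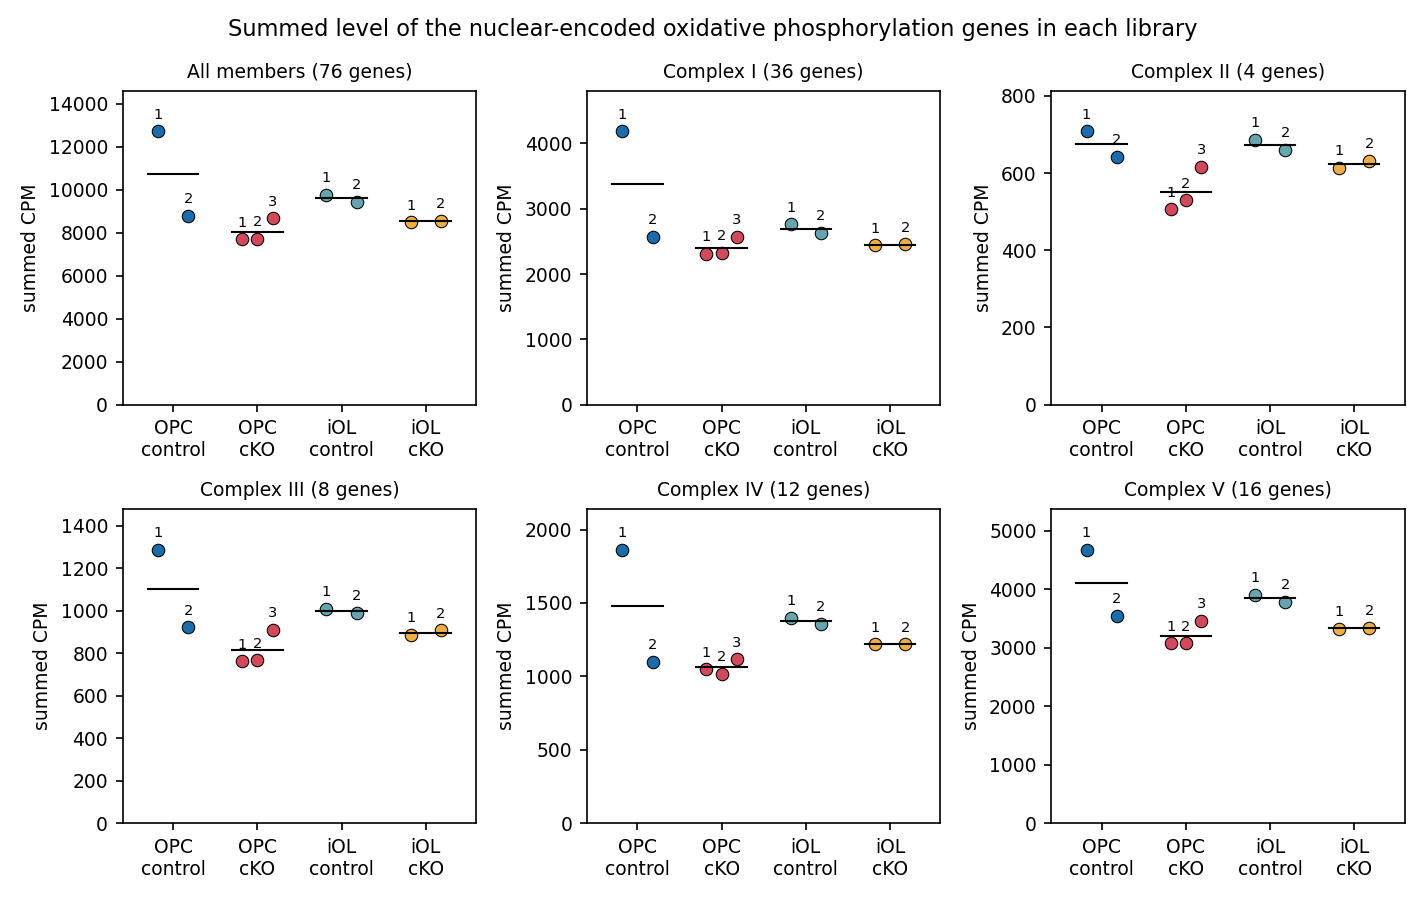
Summed CPM of the members (vertical axes, from 0) for all 76 genes and for each complex, in the 4 groups; points are libraries with their replicate number and lines are group means. OPC control 1 is the highest library in every panel (12715 CPM for all members), most clearly in complexes I and IV and least in complex II.

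By complex, OPC control 1 was the highest library throughout, and the order of the others differed in complex IV. Complex I, which oxidises NADH, summed to 4184 and 2570 CPM in the OPC controls, 2311, 2326 and 2569 CPM in cKO OPCs, 2763 and 2631 CPM in control iOLs and 2444 and 2457 CPM in cKO iOLs. Complex IV, cytochrome c oxidase, summed to 1861 and 1101 CPM in the OPC controls, 1048, 1018 and 1116 CPM in cKO OPCs, 1401 and 1360 CPM in control iOLs and 1218 and 1218 CPM in cKO iOLs. In complex I every cKO OPC library was below both OPC controls, with OPC cKO 3 level with OPC control 2, and in complex IV OPC control 2 was below OPC cKO 3 and both cKO iOLs. All cKO OPC libraries lay far below OPC control 1 in both complexes.

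Complex II, succinate dehydrogenase, which is shared with the citric acid cycle, differed least between the OPC controls, at 708 and 643 CPM. It stood at 507, 530 and 617 CPM in cKO OPCs, 687 and 661 CPM in control iOLs and 614 and 632 CPM in cKO iOLs. Complex III summed to 1287 and 923 CPM in the OPC controls, 763, 767 and 912 CPM in cKO OPCs, 1009 and 991 CPM in control iOLs and 887 and 909 CPM in cKO iOLs. Complex V summed to 4674 and 3548 CPM in the OPC controls, 3077, 3080 and 3465 CPM in cKO OPCs, 3910 and 3792 CPM in control iOLs and 3330 and 3342 CPM in cKO iOLs. For complexes II, III and V every cKO OPC library was below both OPC controls, and OPC cKO 3, the day 6 library, was the highest of its group and close to OPC control 2.

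OPC control 1 set the range of these genes. Of the 76 members, 67 (88.2%) were higher in it than in all 8 other libraries, against 24.0% of all genes. Its level was above that of OPC control 2 for 73 members, with a median log2 ratio of 0.75, where the median over all genes was 0.03. The summed level was 1.45-fold that of OPC control 2, and by complex 1.63-fold for I, 1.1-fold for II, 1.39-fold for III, 1.69-fold for IV and 1.32-fold for V. With RLE, upper-quartile or no scaling factors the median log2 ratio of the members was 0.70 to 0.79.

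The step was uneven within each complex. In complex I the log2 ratio of OPC control 1 to OPC control 2 ran from 0.00 for Ndufs1, a core iron-sulfur subunit of the electron input arm (117 CPM in both), to 1.16 for the accessory subunit Ndufa5 (73.5 and 32.8 CPM). In complex II it ran from -0.11 for the flavoprotein Sdha (245 and 263 CPM) to 0.60 for the iron-sulfur subunit Sdhb (188 and 124 CPM), and in complex III from -0.27 for the core protein Uqcrc2 (161 and 194 CPM) to 1.0 for the small subunit Uqcrq (140 and 70.1 CPM). In complex IV it ran from 0.46 for Cox8a (196 and 143 CPM) to 1.96 for Cox7a1, a member with few counts (21 and 6 reads).

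Complex V showed the same unevenness, from 0.00 for Atp5g2, which encodes a c-ring subunit (55.8 CPM in both), to 1.01 for Atp5e, a subunit of the F1 head (212 and 105 CPM). The catalytic and largest F1 subunits stood at the low end: Atp5a1 had 963 and 869 CPM and Atp5b 1370 and 1160 CPM, log2 ratios of 0.15 and 0.23. Over all complexes, Sdha and Uqcrc2 were lower in OPC control 1 than in OPC control 2, and Ndufs1 and Atp5g2 were level to rounding. Sdhc, of complex II, was nearly level as well (155 and 151 CPM, log2 ratio 0.04).

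Other gene lists placed this step. The median log2 ratio of OPC control 1 to OPC control 2 was 0.83 over 79 cytosolic ribosomal protein genes and 0.45 over 77 mitochondrial ribosomal protein genes. It was 0.75 over 13 further respiratory genes outside the symbol rule and 0.37 over 48 assembly factors. The 13 held subunits and electron carriers, but also the assembly factor Ndufaf2, the ATP synthase inhibitor Atpif1 and the ubiquinone synthesis genes Coq7 and Coq9. The median was 0.04 over 17 genes of the citric acid cycle and pyruvate dehydrogenase, -0.01 over 19 glycolytic genes and 0.00 over 17 regulators of mitochondrial biogenesis. The respiratory subunits and both kinds of ribosomal protein genes were thus displaced in this library, and the citric acid cycle, glycolytic and biogenesis lists were not displaced as lists.

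**Figure D2:**
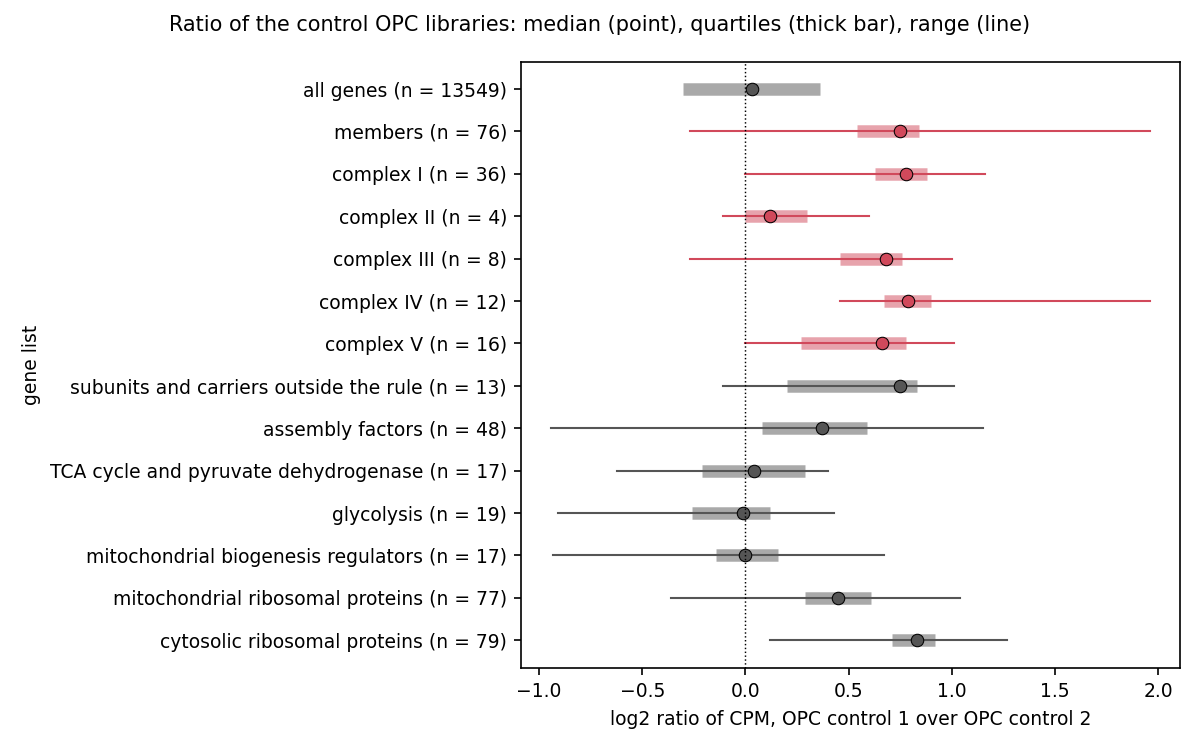
Log2 ratio of CPM in OPC control 1 over OPC control 2 (horizontal axis) for all genes, the members, each complex and 7 other gene lists; points are medians, thick bars quartiles and thin lines ranges (no range is drawn for all genes). The members' median is 0.75 and that of the cytosolic ribosomal protein genes 0.83, whereas all genes centre on 0.03.

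OPC control 1 is of postnatal day 7 and OPC control 2 of day 6, so library and day cannot be told apart within the controls. Among the cKO OPCs the day ran the other way: OPC cKO 3, of day 6, lay above the mean of the day 7 libraries for 69 of 76 members, with a median log2 difference of 0.16. The summed level of 8 astrocyte markers, such as Gfap and Aqp4, moved with the day in OPCs, at 3419, 2986 and 3193 CPM in the day 7 libraries (OPC control 1, OPC cKO 1 and 2) and 9635 and 7706 CPM in the day 6 libraries. Neuron markers summed to 142 to 313 CPM over all 9 libraries, and P2ry12, the microglial marker in the table, stood at 1.12 to 2.48 CPM. The part of these cell types, of differentiated cells and of blood in the high member level of OPC control 1 was not tested.

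**Figure D3:**
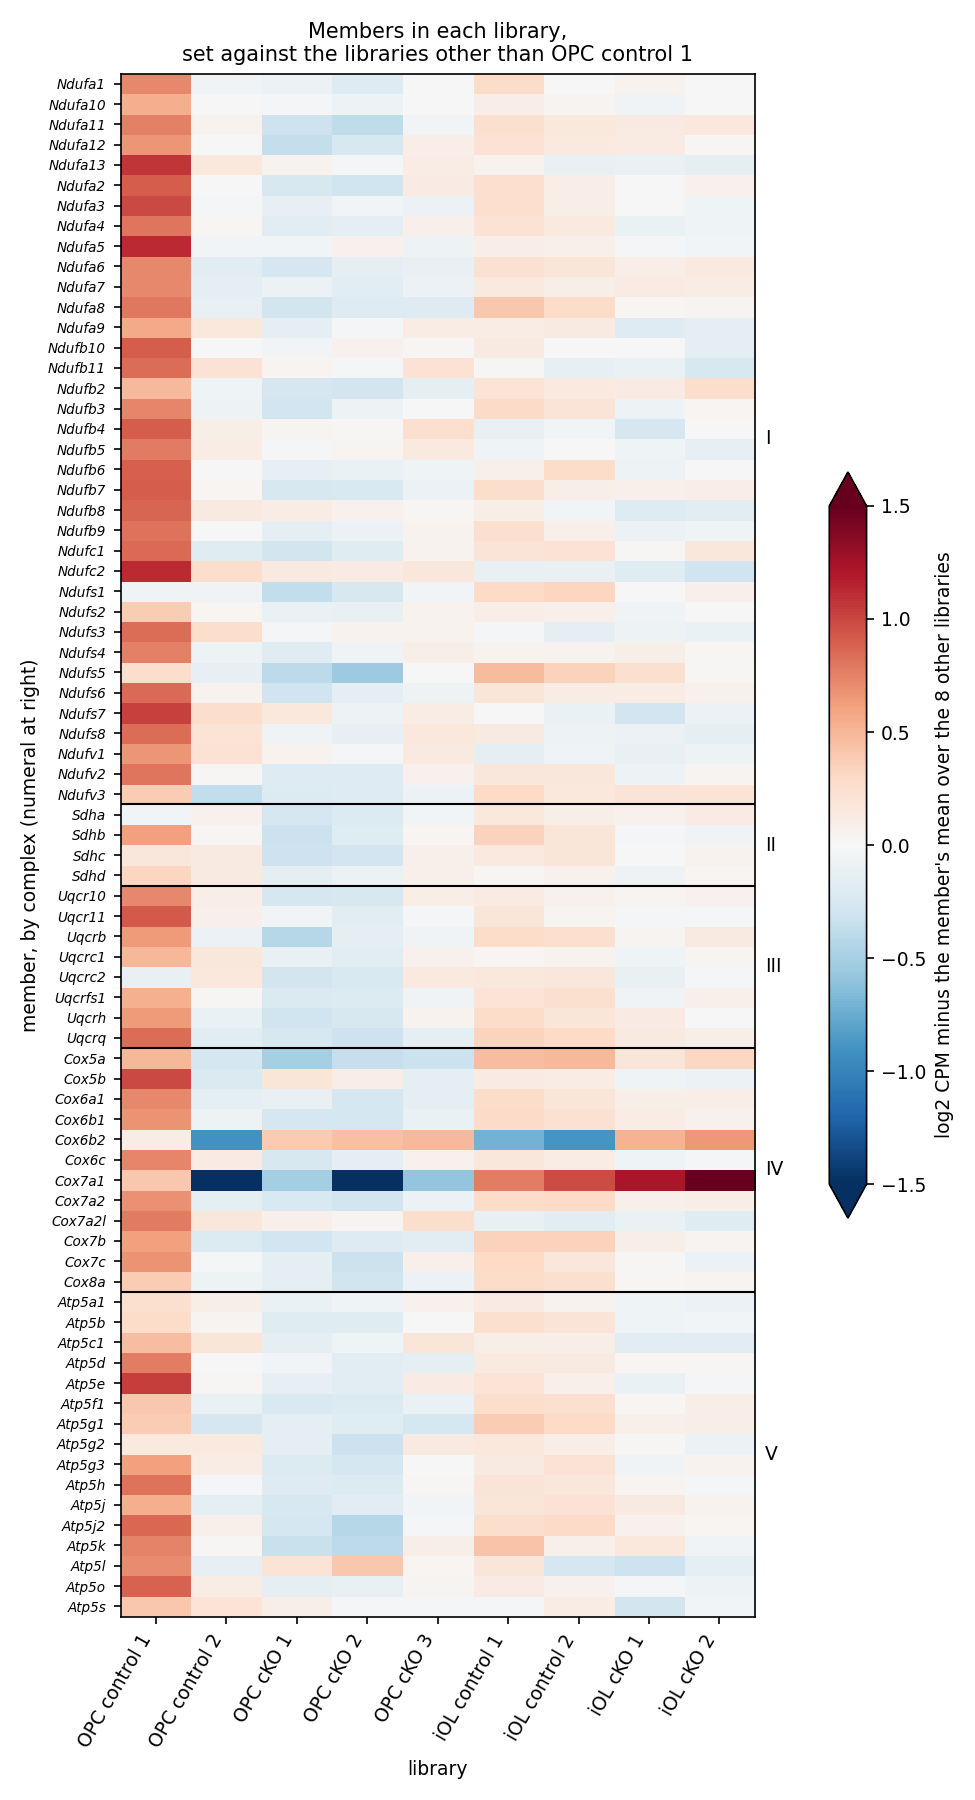
Heat map of all 76 members (rows, grouped by complex) in the 9 libraries (columns); colour is log2 CPM minus the member's mean over the 8 libraries other than OPC control 1, cut at 1.5 either way. The first column is red for 67 members that are highest there, while Cox6b2 and Cox7a1 in complex IV follow genotype or stage instead.

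Genes of this system are known to carry short binding motifs of the regulators NRF1, ETS factors such as GABP, and YY1 near their start sites. The RefSeq promoter table (GRCm38.p6, the build also called mm10) held 66 of the 76 members, and for each gene the 300 bases around its first listed start were searched on both strands. The NRF1 core CGCATGCG was found in 8 member promoters (12.1%, against 1.91% of 27025 promoters), the ETS motif CCGGAAGT in 5 (7.58% against 4.0%) and the YY1 motif AAGATGGC in 9 (13.6% against 2.88%). At least 1 of the 3 was present in 21 (31.8% against 8.36%), and the median number of CpG dinucleotides was 19 against 7. The promoters compared were not matched to the members for CpG number or expression. A match describes letters and not a bound site. The 250 bases before the start are shown for a complex I, a complex III and a complex IV gene with a motif in that stretch, since members that stood high together in OPC control 1 included all 3. Capitals mark the motif, NRF1 in Ndufa11 and Cox6a1 and ETS in Uqcr11.
Ndufa11 (NRF1; chr17:56717512-56717761, + strand): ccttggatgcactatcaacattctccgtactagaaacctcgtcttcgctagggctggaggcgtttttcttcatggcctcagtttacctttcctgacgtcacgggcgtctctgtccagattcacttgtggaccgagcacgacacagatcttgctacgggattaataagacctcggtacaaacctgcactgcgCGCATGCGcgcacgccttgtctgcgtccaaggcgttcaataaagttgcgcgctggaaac
Uqcr11 (ETS; chr10:80406822-80407071, - strand): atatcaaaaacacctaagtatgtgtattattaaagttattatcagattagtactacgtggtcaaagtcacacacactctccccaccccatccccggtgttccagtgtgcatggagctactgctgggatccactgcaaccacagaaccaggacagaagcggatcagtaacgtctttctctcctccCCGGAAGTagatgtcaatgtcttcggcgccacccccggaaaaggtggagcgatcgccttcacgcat
Cox6a1 (NRF1; chr5:115348959-115349208, - strand): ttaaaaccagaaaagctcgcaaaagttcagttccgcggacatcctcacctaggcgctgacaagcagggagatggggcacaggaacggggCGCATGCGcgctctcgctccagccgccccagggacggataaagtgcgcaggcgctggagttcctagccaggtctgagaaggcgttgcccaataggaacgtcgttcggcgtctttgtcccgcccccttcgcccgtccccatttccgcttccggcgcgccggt

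Ndufa11, an accessory subunit of the complex I membrane arm, was at 96.2 and 59.2 CPM in the OPC controls and at 43.9 to 67.4 CPM in the other 7 libraries. Uqcr11, a small complex III subunit, was at 141 and 78.1 CPM in the OPC controls and at 66.1 to 84.0 CPM elsewhere. Cox6a1, the widely expressed form of a complex IV subunit, was at 317 and 175 CPM in the OPC controls and at 161 to 232 CPM elsewhere. Each of these genes was highest in OPC control 1, while OPC control 2 lay within the range of the other libraries.

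In OPCs, loss of Eed was compared with the controls to ask which genes depend on PRC2 before differentiation. No member passed the test (edgeR quasi-likelihood, with p adjusted over all genes by Benjamini-Hochberg and called under 0.05), where 2.94% of all genes were called higher and 0.303% lower. The lowest adjusted p of a member was 0.0861. Of the 76 members, 75 had a negative log2 fold change and the median was -0.50, against -0.02 over all genes. At an unadjusted p under 0.05 there were 56 lower and 1 higher, where 12.5% of all genes were lower and 13.2% higher. DESeq2 called 8 lower and 0 higher, where it called 1.76% of all genes lower and 5.66% higher. Every cKO library was below both controls for 35 members (46.1%, against 17.4% of all genes).

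This shift depended on OPC control 1. Without it the median of the members was -0.11, 62 were negative, none was called lower (0.0738% of all genes were) and 1 was called higher (1.49% of all genes were). Without OPC control 2 the median was -0.82 and 65 of 76 were called lower, where 15.3% of all genes were called lower and 13.7% higher, and no member was called higher. Within day 7, the mean of OPC cKO 1 and 2 was below OPC control 1 for 75 members, with a median log2 difference of -0.87. Within day 6, OPC cKO 3 was below OPC control 2 for 38 members and above it for 38, with a median of 0.00. The lower level of the members in cKO OPCs was therefore seen against OPC control 1 and was not seen within the day 6 pair, which has 1 library a group and no test.

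**Figure D4:**
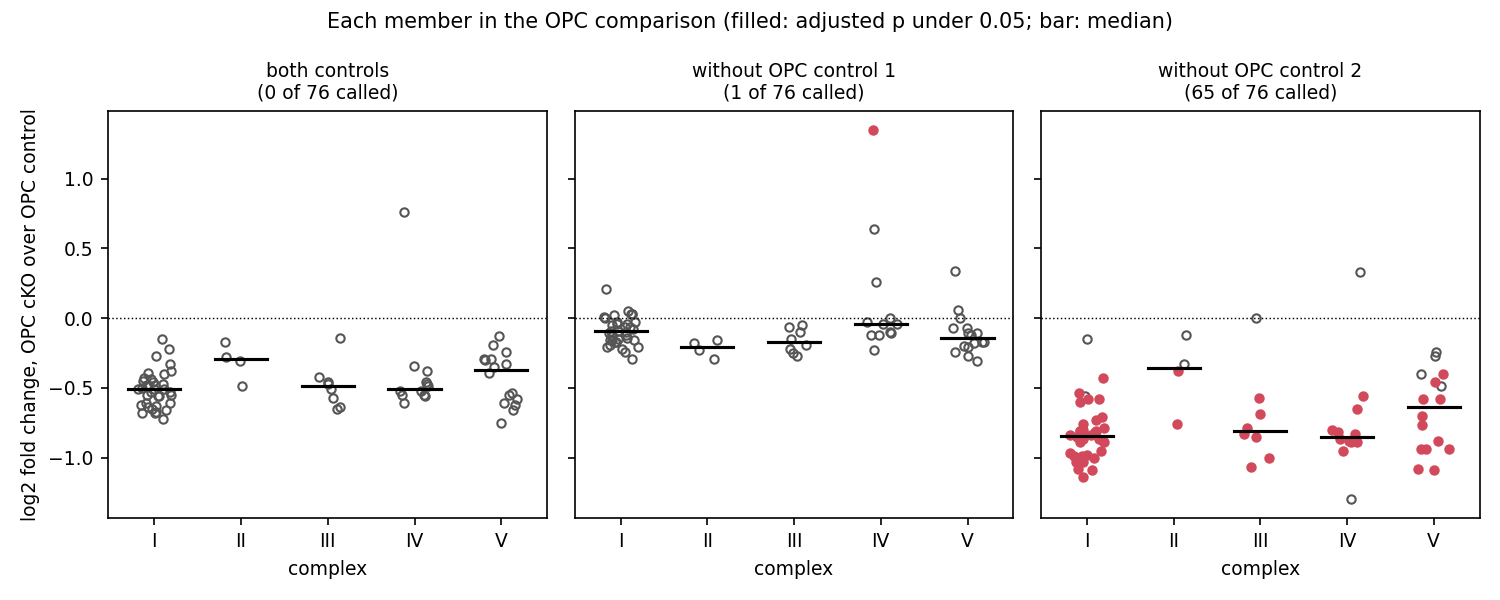
Log2 fold change of each member in cKO over control OPCs (vertical axis) by complex, with both controls, without OPC control 1 and without OPC control 2; filled points have an adjusted p under 0.05 and bars are medians. The cloud lies at a median of -0.50 with both controls, at -0.11 without control 1 and at -0.82 without control 2, where 65 members are called.

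With both controls, the median log2 fold change was -0.51 in complex I, -0.30 in complex II, -0.49 in complex III, -0.50 in complex IV and -0.37 in complex V. Leaving out OPC control 1 gave -0.10, -0.20, -0.17, -0.04 and -0.14 in the same order. The 7 core subunits of complex I ranged from Ndufs1 (-0.15 ± 0.113, SE) to Ndufs7 (-0.62 ± 0.195). Ndufs3, a core subunit of the arm that carries electrons to ubiquinone, was at 107 and 72.0 CPM in controls and 58.9, 62.0 and 62.0 CPM in cKO OPCs, so the groups did not overlap, with a log2 fold change of -0.55 ± 0.153 and an adjusted p of 0.0896. Its value without OPC control 1 was -0.24, with an adjusted p of 0.279.

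Atp5j2, a subunit of the membrane part of the ATP synthase, had the most negative value, at 98.9 and 57.5 CPM in controls against 45.3, 40.5 and 53.3 CPM in cKO OPCs. Its log2 fold change was -0.75 ± 0.205, with an adjusted p of 0.0861, and without OPC control 1 it was -0.31 (adjusted p = 0.306). In the F1 head, the value was -0.19 ± 0.130 for Atp5a1, -0.29 ± 0.141 for Atp5b and -0.66 ± 0.238 for the small subunit Atp5e, and none of them passed the test. The 8 members that DESeq2 called lower were Atp5g3, Atp5j2, Atp5o, Cox6c, Ndufa11, Ndufb7, Ndufs3 and Ndufs6, named after their values were seen.

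In iOLs the comparison of cKO with control cultures gave 1 member higher and none lower, where 7.08% of all genes were called higher and 3.51% lower. The called member was Cox6b2, the isoform of complex IV subunit 6B known from testis, which in most tissues is replaced by Cox6b1. Apart from Cox6b2 and Cox7a1 (0.66 ± 0.520, adjusted p = 0.542), members ran from -0.31 to 0.02. The median log2 fold change over all 76 was -0.16 (all genes, 0.00) and 69 were negative. At an unadjusted p under 0.05 there was 1 higher and 0 lower, where 1975 of all 13549 genes were higher and 1167 lower. DESeq2 likewise called 1 member higher and 0 lower, and of all genes 1202 higher and 640 lower. By complex the median was -0.12, -0.10, -0.17, -0.19 and -0.19 for I to V. Both cKO libraries were below both controls for 53 members (69.7%, against 34.3% of all genes). With other scalings this count was 43 to 56 of 76, where 25.6% to 34.7% of all genes were lower in the same way.

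Cox6b2 (chr7:4751792-4753094) was at 4.32 and 3.83 CPM in control iOLs and 10.2 and 11.1 CPM in cKO iOLs (76 and 69 against 192 and 209 reads). Its groups did not overlap, and the log2 fold change was 1.38 ± 0.295 (SE, 2 against 2 libraries), a 2.61-fold difference with an adjusted p of 0.0177. Leaving out any 1 of the 4 iOL libraries left the size at 1.30 to 1.47 but raised the adjusted p to 0.0858 to 0.121.

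In OPCs the same gene was at 7.67 and 3.79 CPM in controls and 9.33, 9.69 and 9.91 CPM in cKO cells. Every cKO library was above both controls, which held for no other member in OPCs (1.32% of members, against 16.9% of all genes). The log2 fold change of Cox6b2 was 0.76 ± 0.267, with an adjusted p of 0.138. Leaving out OPC control 1 gave 1.35 and an adjusted p of 0.0198. Across all 9 libraries the 5 cKO libraries of both stages lay between 9.33 and 11.1 CPM, and the controls other than OPC control 1 between 3.79 and 4.32 CPM. Cox6b1, the common form, was at 226 and 217 CPM in control iOLs and 200 and 194 CPM in cKO iOLs, and at 296 and 175 against 155, 154 and 172 CPM in OPCs.

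The promoters of this pair are shown because Cox6b2 was called in cKO iOLs and Cox6b1 was not; the difference between the genes was not tested. Capitals mark CpG dinucleotides, of which the 250 bases before the start held 8 in Cox6b2 and 14 in Cox6b1.
Cox6b2 (chr7:4753095-4753344, - strand): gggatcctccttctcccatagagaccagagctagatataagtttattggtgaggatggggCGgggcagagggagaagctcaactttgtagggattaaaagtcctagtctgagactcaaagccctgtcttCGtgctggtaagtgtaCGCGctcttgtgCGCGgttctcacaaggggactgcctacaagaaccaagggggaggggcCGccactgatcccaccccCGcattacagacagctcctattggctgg
Cox6b1 (chr7:30626115-30626364, - strand): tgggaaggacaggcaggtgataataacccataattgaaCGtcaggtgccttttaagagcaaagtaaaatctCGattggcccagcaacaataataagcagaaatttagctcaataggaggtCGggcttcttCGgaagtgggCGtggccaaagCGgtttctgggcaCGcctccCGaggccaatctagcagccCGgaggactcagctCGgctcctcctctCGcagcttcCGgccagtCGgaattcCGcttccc
Neither held any of the 3 motifs. Over the whole 300 bases Cox6b2 had 10 CpG, above 56.1% of all promoters, and Cox6b1 had 17, above 68.1%.

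**Figure D5:**
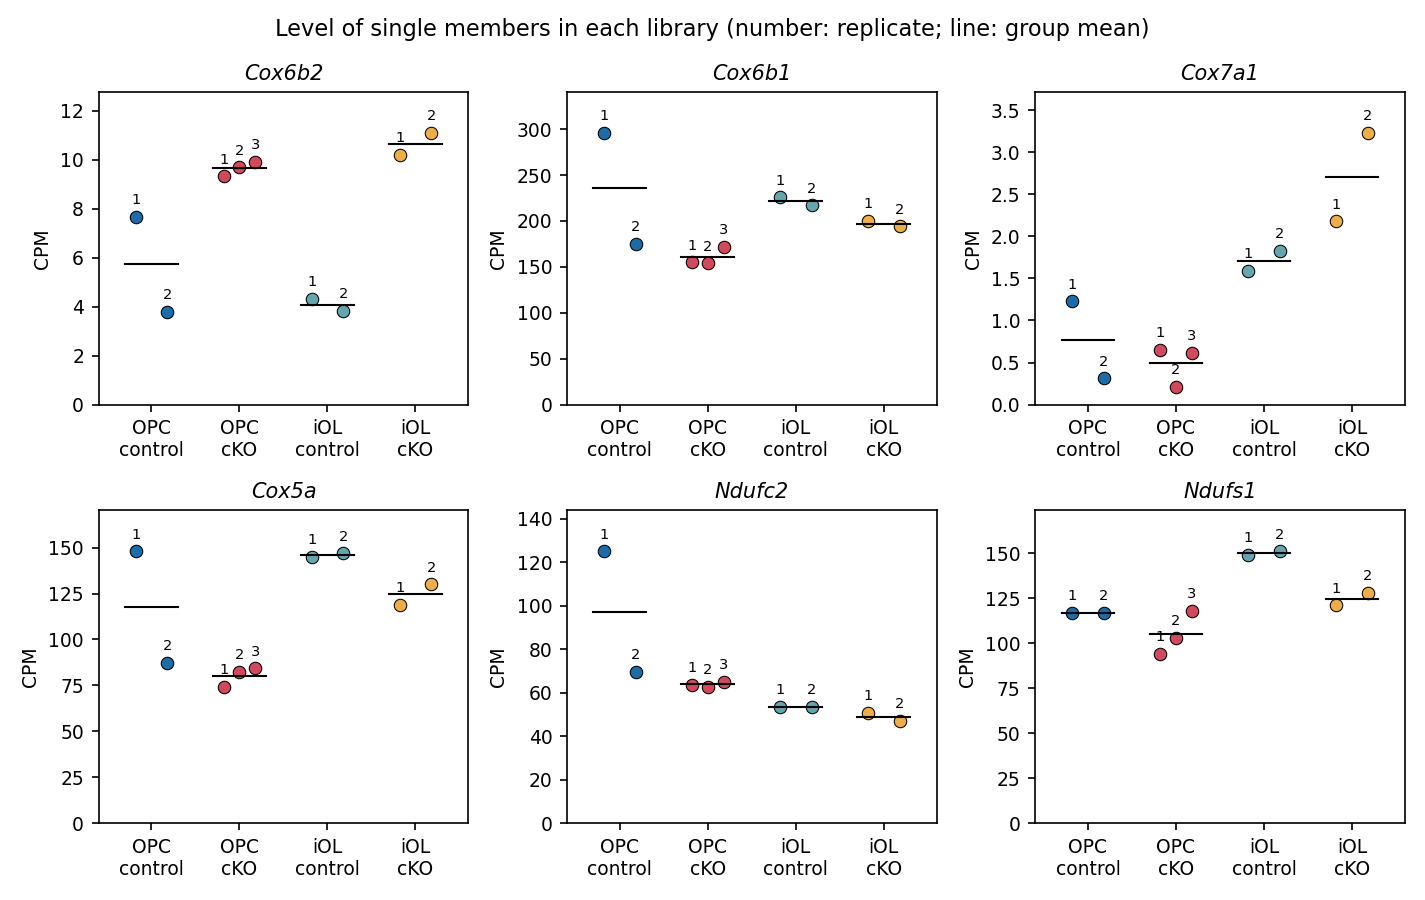
CPM (vertical axes, from 0) of 6 members in the 4 groups; points are libraries with their replicate number and lines group means. Cox6b2 is higher in all 5 cKO libraries (9.33 to 11.1 CPM) than in the controls, Cox7a1 and Cox5a are higher in iOLs than in the cKO OPCs, and Ndufc2 is lower in iOLs.

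When only the iOL groups entered the fit, 12 of 76 members were called lower, a share near the 11.5% of all genes. In that fit 1 member was called higher, where 15.9% of all genes were. Those called lower included the complex I subunits Ndufa8, Ndufa9 and Ndufs1, and Ndufa4, which is counted with complex I by its name. The others were the complex IV subunits Cox7b, Cox7c and Cox8a, the ATP synthase subunits Atp5b, Atp5c1 and Atp5g1, and Sdhb and Uqcrc2. The log2 fold changes of these 12 were -0.31 to -0.22 in the fit of all 9 libraries. Ndufs1 was at 149 and 151 CPM in control iOLs and 121 and 128 CPM in cKO iOLs, and Atp5b, the catalytic subunit, at 1330 and 1290 against 1080 and 1100 CPM. Beside this small shift, the summed level of the differentiation markers was 7868 and 7575 CPM in control iOLs and 1484 and 2118 in cKO iOLs, and that of 8 astrocyte markers 6286 and 6505 against 9456 and 11370. Neuron markers summed to 173 and 178 against 279 and 313 CPM. Flt1 and Kdr, the only 2 of 5 listed endothelial markers in the count table, summed to 40.4 and 35.3 against 87.5 and 103 CPM. Their part in the members' values was not tested.

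The step from OPC to iOL was compared within controls to follow the members through differentiation. In controls 1 member rose and 8 fell, where 21.0% of all genes were called higher and 25.3% lower. DESeq2 called 1 member higher and 9 lower, and of all 13549 genes 3035 higher and 3382 lower. The median log2 fold change of the members was -0.24 (all genes, -0.06), and by complex it was -0.32, -0.03, -0.10, -0.11 and -0.22 for I to V (without OPC control 1: 0.15, 0.05, 0.12, 0.34 and 0.13). Both iOL libraries were below both OPC controls for 16 members (21.1%, against 37.6% of all genes) and above them for 4 (5.26%, against 34.3% of all genes). Of the 8 that fell, 7 belong to complex I.

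Ndufc2, an accessory subunit of the complex I membrane arm, was at 125 and 69.5 CPM in the OPC controls and 53.5 and 53.6 CPM in the control iOLs. The groups did not overlap, and its log2 fold change was -0.86 ± 0.223, with an adjusted p of 0.0117. Without OPC control 1 it was -0.38, with an adjusted p of 0.0211, a smaller fall that was still called.

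The other 7 that fell were Ndufs7 (-0.74), Ndufa13 (-0.71), Ndufs3 (-0.65), Cox7a2l (-0.64), Ndufb11 (-0.62), Ndufv1 (-0.56) and Ndufb5 (-0.52), with adjusted p-values of 0.0119 to 0.0470. Ndufs7 and Ndufs3 are core subunits on the path to ubiquinone, and Ndufv1 holds the NADH site. Without OPC control 1, Ndufs3 (-0.34, adjusted p = 0.0346) and Ndufv1 (-0.32, adjusted p = 0.0381) were still called, and Ndufs7, Ndufa13, Cox7a2l, Ndufb11 and Ndufb5 were not (adjusted p 0.0698 to 0.306). Ndufa13 overlaps Tssk6 and Ndufb11 overlaps Rbm10 in the annotation, so reads of these pairs are uncertain where the counting did not use strand.

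The member that rose was Ndufs1, at 117 in both OPC controls and 149 and 151 CPM in the control iOLs. Its log2 fold change was 0.36 ± 0.124, with an adjusted p of 0.0397. It was the same size without either control, at 0.36, but then missed the threshold (adjusted p 0.0655 and 0.0569). Ndufs1 overlaps the antisense gene Ino80dos.

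Without OPC control 1 the picture turned for most members. The median became 0.15, 56 members were positive, 14 were called higher and 3 lower, where 20.2% of all genes were called higher and 23.6% lower. Of the 14, 7 were complex IV genes (Cox5a, Cox6a1, Cox6b1, Cox7a1, Cox7a2, Cox7b and Cox8a), 3 complex I (Ndufa6, Ndufa8 and Ndufv3), 1 complex III (Uqcrq) and 3 complex V (Atp5f1, Atp5g1 and Atp5j). Without OPC control 2, 51 were called lower and none higher, where 29.6% of all genes were called lower and 23.8% higher, with a median of -0.52. Against OPC control 2, the day 6 library, the day 6 control iOLs were higher for 56 members, with a median log2 difference of 0.34 in complex IV and 0.15 in complex I.

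In cKO cultures, where OPC control 1 does not enter the comparison, 2 members rose from OPC to iOL and none fell, where 18.5% of all genes were called higher and 21.8% lower. The median log2 fold change was 0.11 (all genes, 0.00), and by complex 0.06, 0.15, 0.17, 0.23 and 0.11 for I to V. Against OPC cKO 3, the day 6 library, the day 6 cKO iOLs were higher for 35 members and lower for 41, with a median log2 difference of -0.03 (complex I -0.03, II -0.06, III 0.00, IV 0.15, V -0.04). The small median thus had the opposite sign within day 6. Both iOL libraries were above all 3 OPC libraries for 28 members (36.8%, against 34.3% of all genes), a share near that of all genes. At an unadjusted p under 0.05 there were 4 higher and 0 lower, where 3148 of all 13549 genes were higher and 3479 lower. DESeq2 called 2 members higher and 0 lower, and of all genes 2582 higher and 3030 lower. Both called members belong to complex IV.

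Cox7a1, an isoform of subunit 7A best known from heart and skeletal muscle, had few reads. It was at 0.651, 0.215 and 0.619 CPM in cKO OPCs (12, 4 and 12 reads) and 2.18 and 3.23 CPM in cKO iOLs (41 and 61 reads), and the groups did not overlap. The log2 fold change was 2.43 ± 0.525, with an adjusted p of 0.00544 that ranged from 0.000702 to 0.0536 over the alternatives. In controls it was at 1.23 and 0.316 CPM in OPCs and 1.59 and 1.83 CPM in iOLs, with a log2 fold change of 1.16 ± 0.589 (adjusted p = 0.134), and without OPC control 1 of 2.41 (adjusted p = 0.0201).

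Cox5a, which binds regulators of complex IV activity, stood in cKO OPCs at 74.2, 82.4 and 84.3 CPM and in cKO iOLs at 119 and 130 CPM. The groups did not overlap, and the log2 fold change was 0.63 ± 0.187, with an adjusted p of 0.0239 (0.00224 to 0.141 over the alternatives). In controls it was at 148 and 87.4 CPM in OPCs and 145 and 147 CPM in iOLs. The log2 fold change was 0.31 ± 0.207 (adjusted p = 0.245). It was 0.74 without OPC control 1 and -0.02 without OPC control 2. Against the day 6 library of each genotype the step was 0.74 in controls and 0.56 in cKO cultures.

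Cox7a2, the widely expressed form of subunit 7A, stood in cKO OPCs at 78.4, 76.1 and 86.0 CPM and in cKO iOLs at 97.0 and 97.4 CPM and did not pass the test (0.28 ± 0.198, adjusted p = 0.295). It overlaps Tmem30a in the annotation. The promoters of the 7A pair are shown with CpG dinucleotides in capitals, 4 in Cox7a1 and 14 in Cox7a2.
Cox7a1 (chr7:30183921-30184170, + strand): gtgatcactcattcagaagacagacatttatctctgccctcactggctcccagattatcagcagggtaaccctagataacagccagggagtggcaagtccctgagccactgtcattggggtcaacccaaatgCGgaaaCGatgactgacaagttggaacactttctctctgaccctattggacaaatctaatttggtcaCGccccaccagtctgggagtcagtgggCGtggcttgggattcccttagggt
Cox7a2 (chr9:79759854-79760103, - strand): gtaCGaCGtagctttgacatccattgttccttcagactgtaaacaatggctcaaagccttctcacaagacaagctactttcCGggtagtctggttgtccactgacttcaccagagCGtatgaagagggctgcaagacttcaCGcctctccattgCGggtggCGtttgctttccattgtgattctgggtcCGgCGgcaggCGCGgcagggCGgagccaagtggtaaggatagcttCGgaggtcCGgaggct
With 7 CpG in its 300 bases, Cox7a1 was above 47.7% of all promoters, and Cox7a2 with 20 was above 73.2%. Neither held any of the 3 motifs.

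The difference between the stage steps of the genotypes, equally the difference between the cKO effects of the stages, was tested as an interaction. No member was called in either direction, where 0.945% of all genes were called higher and 0.886% lower. DESeq2 called none either, and 1 member, Ndufs3 (0.54 ± 0.229, adjusted p = 0.250), had an unadjusted p under 0.05. The median was 0.37 (all genes, 0.07) and 73 members were positive. Without OPC control 1 it was -0.05, with 27 positive and none called, and without OPC control 2 it was 0.67, with 48 called higher, where 8.25% of all genes were. For Cox6b2 the difference between its iOL and its OPC effect was 0.63 ± 0.393 (adjusted p = 0.418).

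Other genes of the pathway were read from the same fit. Of the 13 respiratory genes outside the symbol rule, none was called in the OPC or iOL cKO comparison. Their median log2 fold changes were -0.46 and -0.14, against -0.50 and -0.16 for the members. The OPC median was -0.13 without OPC control 1 and -0.84 without OPC control 2. At an unadjusted p under 0.05 there were 8 lower in OPCs, where 12.5% of all genes were lower. In iOLs there were 0, where 1167 of all 13549 genes were lower. Cox4i1, the common form of complex IV subunit 4, was at 503 and 298 CPM in the OPC controls, 281, 268 and 296 CPM in cKO OPCs, 268 and 267 CPM in control iOLs and 243 and 254 CPM in cKO iOLs. It fell from OPC to iOL in controls (log2 -0.58 ± 0.209, adjusted p = 0.0453), but not without OPC control 1 (-0.16, adjusted p = 0.248). Cycs, somatic cytochrome c, rose from 23.0, 23.6 and 27.6 CPM in cKO OPCs to 40.4 and 33.6 CPM in cKO iOLs (log2 0.58 ± 0.172, adjusted p = 0.0239). This rise did not pass under every alternative. In controls Cycs was at 38.4 and 28.4 CPM in OPCs and 52.1 and 42.4 CPM in iOLs. Its log2 fold change there was 0.50 ± 0.189 (adjusted p = 0.0547), and 0.74 without OPC control 1.

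Assembly factors, which build the complexes, were called in neither cKO comparison (0 of 48). At an unadjusted p under 0.05, 16 were lower in OPCs, where 12.5% of all genes were, and 0 in iOLs. The median log2 fold change of the assembly factors in cKO against control OPCs was -0.33, and -0.12 without OPC control 1. From OPC to iOL 5 of them rose and 3 fell in controls, and 9 rose and 1 fell in cKO cultures; of all genes 21.0% rose and 25.3% fell in controls and 18.5% and 21.8% in cKO cultures. Their median log2 fold change in controls was -0.08, and 0.11 without OPC control 1. The copper chaperone Cox17, which serves complex IV, was at 3.28 and 1.47 CPM in the OPC controls and 5 and 6.27 CPM in control iOLs (log2 1.25 ± 0.416, adjusted p = 0.0338, and 1.93 without OPC control 1). Tmem126b, a complex I assembly factor, was at 12.1 and 9.95 against 22.5 and 21.5 CPM (1.0 ± 0.154, adjusted p = 0.000734, and 0.000696 without OPC control 1).

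Among 17 regulators of mitochondrial biogenesis, none was called in the cKO comparisons. At an unadjusted p under 0.05, 1 was higher in OPCs, where 13.2% of all genes were. From OPC to iOL in controls 2 rose and 3 fell, shares below the 21.0% and 25.3% of all genes. Their median log2 fold change in that step was 0.01, and 0.04 without OPC control 1. Polg, the mitochondrial DNA polymerase, was at 490 and 505 CPM in the OPC controls and 114 and 110 CPM in control iOLs (log2 -2.15 ± 0.148, adjusted p = 8.91e-06, and -2.17 without OPC control 1), and at 558 to 652 against 141 and 117 CPM in cKO cultures. Ppargc1b, a coactivator of mitochondrial genes, was at 3.28 and 3.26 against 0.625 and 1.05 CPM in controls (-1.95 ± 0.415, adjusted p = 0.00431, and also -1.95 without OPC control 1).

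Among the 17 citric acid cycle and 19 glycolytic genes, 1 of each list was called higher in cKO iOLs, where 7.08% of all genes were. Ldhb, the lactate dehydrogenase form that favours lactate use, was at 277 and 284 CPM in OPC controls and 195, 188 and 274 CPM in cKO OPCs, and in iOLs at 111 and 109 CPM in controls against 208 and 189 CPM in cKO. It rose with Eed loss in iOLs (log2 0.86 ± 0.180, adjusted p = 0.0166, and 0.000356 to 0.122 over the alternatives), and its difference between stages was called at 1.22 ± 0.241 (adjusted p = 0.0430, and 0.0511 without OPC control 1). Idh2, a mitochondrial isocitrate dehydrogenase, was at 74.9 and 78.7 CPM in control iOLs and 109 and 100 CPM in cKO iOLs (0.45 ± 0.122, adjusted p = 0.0463, and 0.00738 to 0.290 over the alternatives). The other 16 citric acid cycle and 18 glycolytic genes were not called in that comparison.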

How the data were processed

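RNA of 9 libraries in 4 groups was analysed; the other 4 of the 13 samples of the series are ChIP libraries and were not analysed here. The deposited values are raw read counts per gene, which per the submitters' processing notes came from a pipeline naming cutadapt 1.14, STAR 2.6.0, featureCounts of Subread 1.6.2 and mm10. Per the labels' protocols, libraries were made with a stranded kit or, from less RNA, with another kit; the sources used here do not tell which library had which, or whether counting used strand. The members and gene lists were chosen with earlier results of these data known.

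Counts were analysed with edgeR 4.0.16 (limma 3.58.1, R 4.3.3): TMM factors, 1 mean per group over all 9 libraries (5 residual degrees of freedom, common dispersion 0.0265, a biological coefficient of variation of 16.3%), quasi-likelihood tests and Benjamini-Hochberg adjustment over 13549 genes, called at an adjusted p under 0.05. The filter (filterByExpr, minimum count 10) removed 0 genes. SE is the log2 fold change divided by the root of the F statistic. Members named are up to 8 called each way by fold in each comparison, the highest and lowest ratio of each complex between the control OPC libraries, and fixed lists of core subunits and isoforms; of other pathway genes, up to 3 called each way. Alternatives were DESeq2 1.42.0, other scalings and filters, fits of the compared groups alone, postnatal day or replicate number as a term, and each library left out. Of the members, 23 overlap another annotated gene and 12 have annotated copies, so their counts are less certain. Promoters came from a RefSeq table of GRCm38.p6 and figures from matplotlib 3.10.9. Of the list of oligodendrocyte differentiation markers, 1 gene is not reported here and was left out of the sum.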

Additional observations from a re-analysis of the deposited data

How the results depend on the processing

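Leaving out 1 library moved most counts, and the OPC controls moved them most. Members called lower in cKO OPCs numbered 0 to 65 and higher 0 to 1; in cKO iOLs the number called higher was 0 whichever iOL library was left out. From OPC to iOL, 0 to 14 rose and 0 to 51 fell in controls, and 0 to 6 rose in cKO cultures; the interaction gave 0 to 48 higher. The median log2 change of the control step then ran from -0.52 to 0.15 (complex I -0.68 to 0.15, IV -0.43 to 0.34, V -0.40 to 0.13), and that of the interaction from -0.05 to 0.67 (I -0.06 to 0.71, III -0.01 to 0.64, IV -0.11 to 0.66). Of other settings, DESeq2 called 8 members lower in cKO OPCs and postnatal day as a term 14 (of all genes, 3.94%). Fits of the compared groups alone gave 12 lower in cKO iOLs, 0 rising and 0 falling in the control step, and 10 rising and 1 falling in the cKO step. Of all genes, these fits called 11.5% lower in cKO iOLs. In them 13.8% of all genes rose and 17.9% fell in the control step, and 21.2% and 24.7% in the cKO step. Upper-quartile factors gave 0 rising in the control step; in the cKO step total counts alone and the day term each gave 4 rising. The causes were not tested.

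Replicate numbers were not taken to pair the libraries (same-number correlations of 0.313 and -0.352 between the OPC groups and 0.239 between the iOL groups). With a replicate block, 7 members were called lower in cKO OPCs (of all genes, 5.3%) and 6 rose in the cKO step (19.8%). Of the named values followed through the alternatives, 302 kept their side of the threshold, 74 lost it, 1 gained it and none reversed its direction. Other values of named genes did reverse. In the control step Cox5a was at 0.31, and at -0.02 without OPC control 2. Cox6b2 was at -0.49 there, and at 0.10 without OPC control 1. In cKO against control OPCs, Cox7a1 was at -0.61, and at 0.64 without OPC control 1. Fits without a filter equal the reported values, since the filter removed 0 genes. With 2 or 3 libraries a group, small changes could not be resolved, and Cox7a1 rested on as few as 4 reads in a library.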

Other observations

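The log2 ratio of OPC control 1 to OPC control 2 was lower for members with a longer genomic span (Spearman rho -0.422 across the 76 members), and a similar relation was seen over all genes with a known span (-0.365 across 13517 genes). These are relations across genes of the same pair of libraries, which share depth and preparation, and genes are not independent replicates.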
